A study of Mus musculus with 5 samples.

Results

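The genes of matrix glycoproteins, proteoglycans and laminins, with the enzyme that makes hyaluronan, were followed across parental mouse embryonic stem cells (ESCs) and the ESC-like colonies that grew out of teratomas. The list names 47 genes, chosen for what their products do and with earlier results of these arrays known. Of them, 45 had a probe set whose annotation gives exactly 1 gene symbol, and Spp1 (osteopontin) and Efemp2 (fibulin 4) had none and were not analysed here. The 45 measured genes stand among 19938 genes named in the same way on an Affymetrix mouse gene array of 35556 probe sets. A probe set is a group of short probes along 1 gene, and each gene was given by its brightest probe set.

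RNA of 5 cell populations was hybridized, 1 array each. The parental ESCs came from the B6CBAF1 line that was later injected. The homologous array held ESC-like cells from a teratoma that B6CBAF1 ESCs formed after subcutaneous injection into B6CBAF1 mice, and the heterologous array those from the same ESCs injected into B6D2F1 mice. For the co-injection arrays, labelled batch 1 and batch 2 (n = 2), B6CBAF1 ESCs were injected into B6D2F1 mice together with B6D2F1 embryonic fibroblasts, which the study calls MFF. All populations, parental ESCs included, were grown on inactivated ICR mouse fibroblasts in serum with leukemia inhibitory factor (LIF), and the study's methods give a higher LIF concentration for the outgrowth from teratomas than for ESCs. Heterologous injection of ESCs alone gave a lone teratoma in the study, so the heterologous array stands for cells of that tumour in its mouse. How many teratomas stand behind each of the other ESC-like arrays is not given in the sources used here.

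Values are deposited log2 expression values, so a difference of 1 is 2-fold, and a gene was counted as higher or lower when this difference exceeded 2-fold, the threshold named in the study's methods. Apart from co-injection each condition had 1 array, so differences have no replicate check of their own and are given without a test. A limma fit that borrows its spread from the co-injection pair called none of them, as given in the closing section. The number of arrays limits the precision. Errors are SDs of the co-injection pair, which the study lists as 2 cell populations. Whether these came from separate teratomas is not given, so the SD may hold little of the spread between animals. Levels of different genes are not compared, because probe sets differ in how brightly they hybridize.

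The extracellular matrix is the mesh of secreted proteins and sugars around cells. Fibroblasts and other mesenchymal cells make most of its adhesive glycoproteins, small leucine-rich proteoglycans, elastic fibre proteins and versican, whereas laminins, nidogens and perlecan form basement membranes, the thin sheets under epithelia that are also among the first matrix of the early embryo. Many matricellular proteins, such as tenascin C and the thrombospondins, alter how cells attach and respond to growth factors rather than bear load.

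The arrays had medians between 7.48 and 7.54. As a check of the labelled cell type, 10 genes of pluripotent cells had median differences from parental ESCs of −0.13 in the homologous array, −0.36 in the heterologous array and −0.14 in the co-injection mean, and the pluripotency factor gene Pou5f1 (Oct-4) lay between 12.29 and 12.60 on all arrays. In the heterologous array 2 of these 10 genes were over 2-fold lower, Zfp42 (−1.63) and Esrrb (−1.18). Of 16 fibroblast markers 11 were over 2-fold higher in the heterologous array than in parental ESCs, led by Pdgfrb (3.10), Prrx1 (2.80) and Col1a1 (2.33). The share of all genes was 3.98%, and the median of the 16 markers was 1.52. The log2 of their summed level was 13.7 in parental ESCs, 13.8 in the homologous array, 14.7 in the heterologous array, and 13.4 and 13.3 in the co-injection arrays. This sum is weighted to the brightest probe sets, Vim (12.65 in parental ESCs) and Pcolce (11.71), and is not a fibroblast total. Their differences in the co-injection mean were −0.44 and −0.27. In the co-injection mean none of the 16 was over 2-fold higher than in parental ESCs and 2 were over 2-fold lower, Thy1 (−1.12) and Prrx1 (−1.07). Of all genes 0.647% were higher and 1.44% lower. The 16 markers are genes that feeder, host and co-injected fibroblasts share with other mesenchymal cells, and the amount of fibroblast RNA in each population was not measured. Fewer cells of a type and less RNA per cell cannot be told apart in such bulk samples. The part of these cells in the matrix gene differences below was not tested.

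Matrix genes lay highest in the heterologous array. Of the 45 measured genes, 38 (84.4%) had their highest value there, against 19.3% of all 19938 genes. Parental ESCs had the highest value for Lama1, Lama5, Lamc1 and Hspg2, the homologous array for Nid2, and co-injection batch 2 for Vtn and Eln. Both co-injection arrays lay below the other 3 arrays for 12 genes (26.7%), against 7.10% of all genes. Parental ESCs had the lowest value for 17 genes, but the share of all genes with this order was not counted, so nothing is read from it.

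Relative to parental ESCs, 6 matrix genes were over 2-fold higher and 2 lower in the homologous array, where 1.45% of all genes were higher and 1.60% lower. The heterologous array had 23 higher and 1 lower, against 3.98% and 1.95% of all genes. In the co-injection mean 1 was higher and 4 were lower, against 0.647% and 1.44% of all genes. The median difference over the 45 genes was 0.32 in the homologous array, 1.24 in the heterologous array and −0.04 ± 0.0905 (SD of the 2 batch medians, n = 2) in the co-injection mean, beside −0.01, −0.04 and 0.04 over all genes.

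Between injected conditions, 23 matrix genes were over 2-fold higher and none lower in the heterologous than in the homologous array, against 2.41% and 0.647% of all genes. In the co-injection mean none was higher and 24 were lower than in the heterologous array, against 0.361% and 2.99% of all genes. Against the homologous array none was higher and 9 were lower, against 0.0752% and 0.351% of all genes. The medians of these comparisons were 1.03, −1.25 and −0.20, beside −0.01, 0.07 and 0.04 over all genes. These 6 comparisons reuse the same arrays and are not independent of one another. The shares of all genes given for them also stand beside the counts of role groups below. Counts of 1 or 2 genes in a group are too small to be set against these shares. Altogether 26 of the 45 genes differed by more than 2-fold in at least 1 comparison, against 8.00% of all genes, and the other 19 did so in none. The co-injection arrays differed from each other by at most 0.476 on the log2 scale for any matrix gene.

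**Figure D1:**
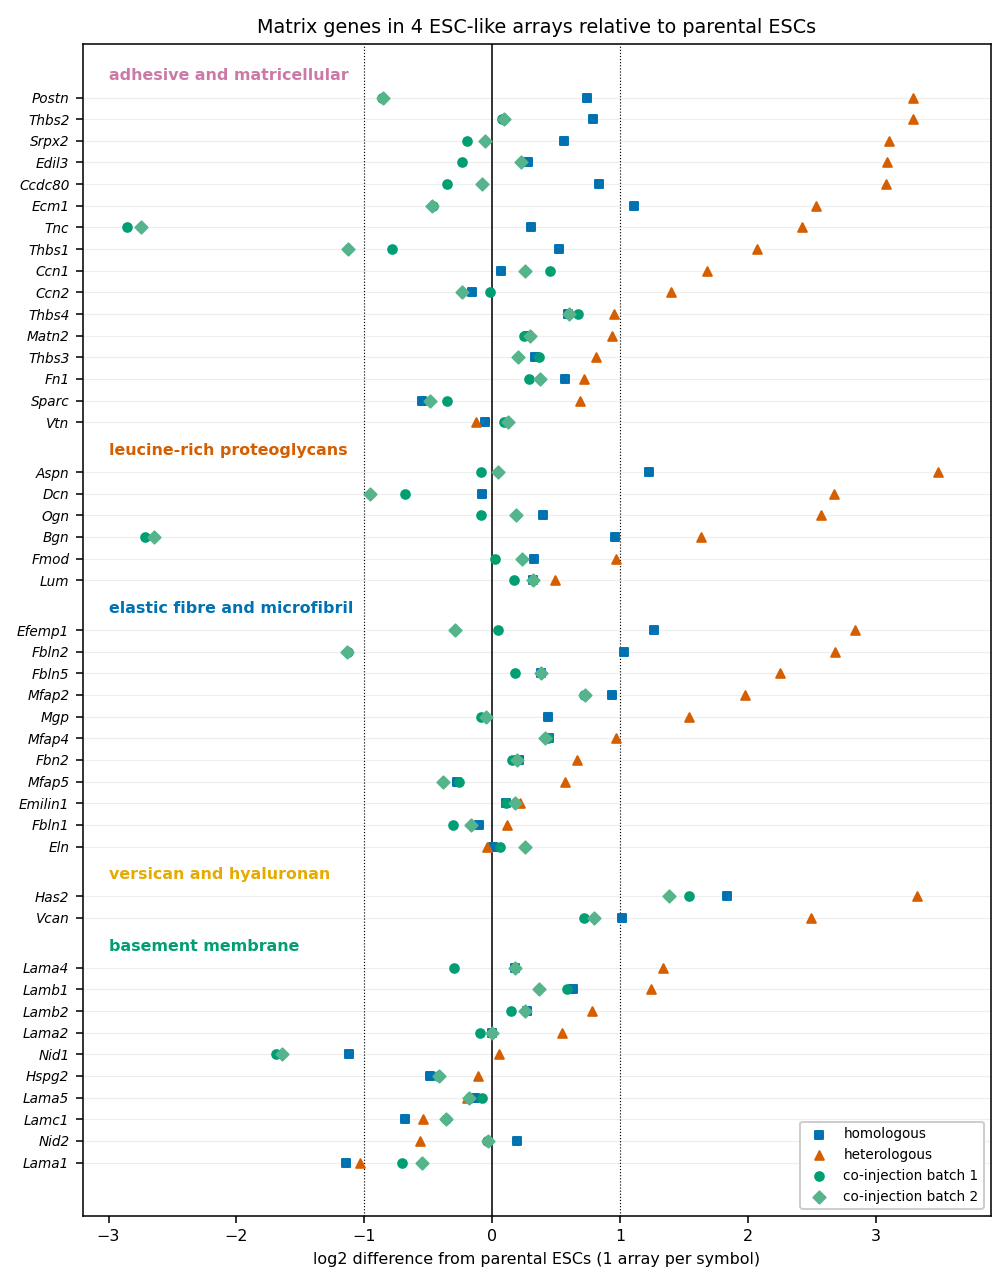
Differences from parental ESCs (horizontal axis, log2) of the 45 measured matrix genes, in role groups and, within each, in the order of the heterologous array; each symbol is 1 array, dotted lines mark 2-fold, and where 1 co-injection symbol is seen the other lies under it. The heterologous triangles lie at the right for most genes outside the basement membrane group, Tnc and Bgn have both co-injection symbols below −2, and Has2 is the gene with all 4 symbols to the right of 1.

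Of 16 measured adhesive and matricellular genes, 10 were over 2-fold higher in the heterologous array than in parental ESCs and none was lower, with a median difference of 1.87. In the homologous array 1 was higher (median 0.43), and in the co-injection mean 1 was lower (median −0.07). Tnc encodes tenascin C, a matricellular glycoprotein of embryonic mesenchyme and wounds. Its log2 value was 10.02 in parental ESCs, 10.32 in the homologous array, 12.44 in the heterologous array, and 7.17 and 7.27 in co-injection batches 1 and 2. The heterologous array was therefore 5.36-fold above parental ESCs while the co-injection mean was 6.97-fold below them, with a difference of −2.80 ± 0.0739 (SD, n = 2), and between those conditions the co-injection mean was 37.4-fold lower. Postn encodes periostin, which binds tenascin C and collagen. It was at 7.02 in parental ESCs, 7.76 in the homologous array, 10.31 in the heterologous array and 6.16 in each co-injection array. The order was the same as for Tnc, and the 9.82-fold excess of the heterologous array over parental ESCs went with a co-injection mean 17.8-fold below the heterologous array.

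Among the thrombospondins, which bind cell surface receptors and growth factors, Thbs1 and Thbs2 passed 2-fold and Thbs3 and Thbs4 did not. Thbs1 was at 10.85 in parental ESCs, 11.37 in the homologous array, 12.92 in the heterologous array, and 10.07 and 9.72 in the co-injection arrays. Both co-injection arrays lay below the other 3, and their mean was 8.12-fold below the heterologous array and 2.78-fold below the homologous array. Thbs2 was at 7.09 in parental ESCs, 7.88 in the homologous array, 10.38 in the heterologous array, and 7.17 and 7.18 in the co-injection arrays. Unlike Thbs1, it lay within 0.09 of parental ESCs on both co-injection arrays. Differences of the heterologous array from parental ESCs were 0.81 for Thbs3 and 0.95 for Thbs4.

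Ccn1 and Ccn2 encode matricellular proteins that are known targets of the YAP and TEAD regulators. Ccn1 was at 10.12 in parental ESCs, 10.19 in the homologous array, 11.79 in the heterologous array, and 10.57 and 10.37 in the co-injection arrays. Ccn2 was at 11.29, 11.13, 12.69, 11.27 and 11.05 in the same order. For both genes the heterologous array stood above the other 4, which lay within 0.45 of one another, and the excess over parental ESCs was 3.20-fold for Ccn1 and 2.64-fold for Ccn2. Sparc encodes osteonectin, a collagen-binding protein that parietal endoderm secretes in quantity. It was at 12.27 in parental ESCs, 11.72 in the homologous array, 12.95 in the heterologous array, and 11.91 and 11.78 in the co-injection arrays. No array differed from parental ESCs by more than 2-fold for Sparc, but the heterologous array lay 2.35-fold above the homologous array and 2.15-fold above the co-injection mean.

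Edil3, which encodes a secreted ligand of integrins, was at 5.59 in parental ESCs, 5.87 in the homologous array, 8.68 in the heterologous array, and 5.35 and 5.82 in the co-injection arrays. Srpx2, an X-linked gene for a secreted sushi-repeat protein, was at 6.91, 7.47, 10.01, 6.71 and 6.85 in the same order. Both were over 8-fold higher in the heterologous array than in parental ESCs (8.49-fold and 8.62-fold) and stayed within 2-fold of them elsewhere. Ccdc80, which encodes a secreted matrix-binding protein, was at 6.25 in parental ESCs, 7.09 in the homologous array, 9.33 in the heterologous array, and 5.90 and 6.17 in the co-injection arrays. Its heterologous value was 8.48-fold above parental ESCs, and the co-injection mean was 2.08-fold below the homologous array, a difference that did not pass 2-fold with batch 2 alone (−0.92). Ecm1 encodes a secreted glycoprotein that binds perlecan and fibulins. It was at 8.61 in parental ESCs, 9.72 in the homologous array, 11.14 in the heterologous array and 8.14 in each co-injection array, and it was the adhesive gene over 2-fold higher than parental ESCs in the homologous array (2.16-fold).

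The other adhesive genes stayed within 2-fold in all comparisons. Fn1 (fibronectin), which bridges integrins and collagen, lay between 12.55 in parental ESCs and 13.27 in the heterologous array. Vtn (vitronectin), an adhesive protein of serum, lay between 6.44 and 6.70, with its lowest value in the heterologous array. Matn2 (matrilin 2), a filament-forming adaptor, differed from parental ESCs by 0.28 in the homologous array, 0.94 in the heterologous array and 0.27 in the co-injection mean.

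**Figure D2:**
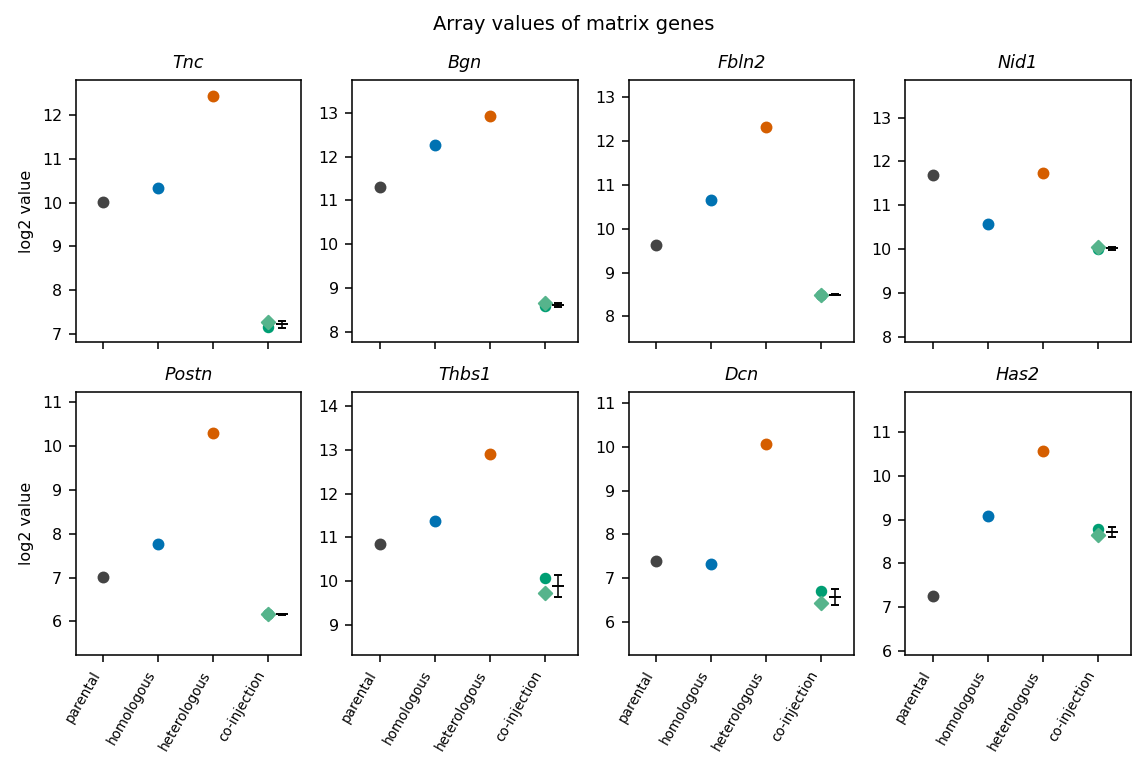
Log2 values (vertical axis) of 8 matrix genes in parental ESCs and in ESC-like cells after homologous, heterologous and co-injection (horizontal axis); co-injection batch 1 is the circle, batch 2 the diamond, and the bar beside them their mean ± SD (n = 2). Every panel spans the same number of log2 units around its own gene. The heterologous array is highest in each panel, level with parental ESCs for Nid1, and the co-injection arrays are lowest in all panels but that of Has2, where parental ESCs are.

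The small leucine-rich proteoglycans are short proteins with glycosaminoglycan chains or sulfated tyrosines that bind collagen fibrils. Of the 6 measured, 4 were over 2-fold higher in the heterologous array (median 2.10), 1 in the homologous array (median 0.36) and none in the co-injection mean, where 1 was lower (median 0.01). Bgn (biglycan), an X-linked gene, was at 11.30 in parental ESCs, 12.26 in the homologous array, 12.93 in the heterologous array, and 8.58 and 8.65 in the co-injection arrays. The co-injection mean was 6.40-fold below parental ESCs (−2.68 ± 0.0476, SD, n = 2), 12.5-fold below the homologous array and 19.9-fold below the heterologous array. Bgn and Tnc had the lowest differences from parental ESCs of all matrix genes in the co-injection mean, and both were above parental ESCs in the heterologous array. Dcn (decorin), the closest relative of Bgn, was at 7.39 in parental ESCs, 7.31 in the homologous array, 10.06 in the heterologous array, and 6.71 and 6.44 after co-injection. It was 6.37-fold above parental ESCs in the heterologous array and within 2-fold of them in the others.

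Aspn (asporin), of the same class, was at 4.76 in parental ESCs, 5.98 in the homologous array, 8.24 in the heterologous array, and 4.67 and 4.80 in the co-injection arrays. Its difference in the heterologous array was 3.48, close to those of Has2 (3.32), Postn (3.30) and Thbs2 (3.29), and in the homologous array it was 1.23. The parental value lies in the dim range, near those of Ecm2 and Omd below, so these differences are less certain in size than those of brighter genes. Ogn (osteoglycin or mimecan) was at 4.91, 5.31, 7.48, 4.82 and 5.10 in the same order, with the heterologous array 5.95-fold above parental ESCs and the other 3 within 0.40 of them. Lum (lumican) lay between 4.32 and 4.81 and Fmod (fibromodulin) between 6.39 and 7.37, both within 2-fold in all comparisons.

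The leucine-rich genes lie in clusters, and their neighbours of the same family were read beside them. On chromosome 10 Dcn (2.67 in the heterologous array relative to parental ESCs) is followed by Lum (0.49), Kera (−0.07) and Epyc (−0.01). On chromosome 13 Aspn (3.48) and Ogn (2.57) alternate with Ecm2 (0.01) and Omd (0.04). In both clusters, therefore, genes that were over 2-fold higher stood next to genes whose values barely differed. Lum, Kera, Epyc, Ecm2 and Omd had values under 6 on all arrays, in the dim range where a probe set can miss a difference. Of all 45 matrix genes 13 had a mean below 7.49, the median of all values, Aspn, Ogn, Lum, Fmod, Postn, Edil3 and Ccdc80 among them.

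Of 11 measured genes of elastic fibres and microfibrils, 5 were over 2-fold higher in the heterologous array (median 0.97), 2 in the homologous array (median 0.38) and none in the co-injection mean, where 1 was lower (median 0.14). Fbln2 encodes fibulin 2, which joins elastic fibres and basement membranes. It was at 9.63 in parental ESCs, 10.66 in the homologous array, 12.31 in the heterologous array and 8.50 in each co-injection array. Relative to parental ESCs it was 2.04-fold higher in the homologous array, 6.42-fold higher in the heterologous array and 2.19-fold lower in the co-injection mean (−1.13 ± 0.00237, SD, n = 2), so the co-injection mean lay 14.1-fold below the heterologous array. Fbln5 (fibulin 5), which is needed for elastic fibre assembly, was at 7.73 in parental ESCs, 8.11 in the homologous array, 9.98 in the heterologous array, and 7.91 and 8.11 in the co-injection arrays. The heterologous array stood 4.77-fold above parental ESCs and the other 3 within 0.38 of them.

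Efemp1 (fibulin 3) was at 7.44 in parental ESCs, 8.70 in the homologous array, 10.28 in the heterologous array, and 7.49 and 7.15 after co-injection. It was 2.40-fold and 7.15-fold higher than parental ESCs in the homologous and heterologous arrays, and the co-injection mean was 2.61-fold below the homologous array. Mfap2, which encodes a glycoprotein of fibrillin microfibrils, was at 8.50 in parental ESCs, 9.44 in the homologous array, 10.47 in the heterologous array, and 9.21 and 9.23 in the co-injection arrays. All 4 ESC-like arrays were above parental ESCs, the heterologous one by 3.93-fold and the others by less than 2-fold. Mgp (matrix Gla protein), an inhibitor of calcification, was at 6.48, 6.91, 8.02, 6.39 and 6.43 in the same order, 2.91-fold higher in the heterologous array than in parental ESCs. The elastin gene itself, Eln, lay between 7.72 and 8.02 on all 5 arrays. Fbn2 (fibrillin 2), the embryonic fibrillin, differed from parental ESCs by 0.66 in the heterologous array and Fbln1 (fibulin 1), which binds fibronectin and nidogen, by 0.12. Mfap4 and Mfap5, of microfibril proteins, and Emilin1, of a glycoprotein at the elastin and microfibril interface, differed there by 0.97, 0.57 and 0.22.

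Versican is a large proteoglycan that binds hyaluronan, the chain made at the cell surface by hyaluronan synthase 2, and both are abundant in embryonic mesenchyme. Both genes were over 2-fold higher than in parental ESCs in the homologous array (median 1.43) and in the heterologous array (median 2.91). Has2 was at 7.25 in parental ESCs, 9.09 in the homologous array, 10.57 in the heterologous array, and 8.79 and 8.64 after co-injection. It was the only matrix gene over 2-fold higher than parental ESCs on all 4 ESC-like arrays, by 3.58-fold in the homologous array, 9.98-fold in the heterologous array and 2.76-fold in the co-injection mean (1.46 ± 0.108, SD, n = 2). No matrix gene was over 2-fold lower on all 4. Vcan was at 8.66 in parental ESCs, 9.68 in the homologous array, 11.16 in the heterologous array, and 9.38 and 9.46 after co-injection. It was 2.03-fold above parental ESCs in the homologous array and 5.62-fold in the heterologous array, and the co-injection mean was 1.69-fold above them. Each of these differences has the same single parental array as its reference.

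Basement membrane genes had differences in both directions. Of 10 measured, 2 were over 2-fold higher and 1 lower in the heterologous array (median −0.03), 2 were lower in the homologous array (median −0.07) and 1 was lower in the co-injection mean (median −0.09). Laminins are cross-shaped trimers of an alpha, a beta and a gamma chain. The alpha 1 chain gene Lama1, expressed in the early embryo, was at 9.46 in parental ESCs, 8.32 in the homologous array, 8.43 in the heterologous array, and 8.76 and 8.91 in the co-injection arrays. All 4 ESC-like arrays lay below parental ESCs, 2.21-fold in the homologous and 2.04-fold in the heterologous array but less than 2-fold in both co-injection arrays. Lama4, whose alpha 4 chain belongs to vessels and mesenchyme, was at 6.39 in parental ESCs, 6.57 in the homologous array, 7.73 in the heterologous array, and 6.10 and 6.57 after co-injection. It was 2.52-fold higher in the heterologous array than in parental ESCs, and its co-injection arrays differed by 0.476, the largest gap of the pair for any matrix gene.

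Lamb1, the gene of the beta 1 chain, was at 9.11 in parental ESCs, 9.74 in the homologous array, 10.36 in the heterologous array, and 9.69 and 9.48 after co-injection. It was above parental ESCs on every ESC-like array, by 2.37-fold in the heterologous array, whereas the gamma 1 chain gene Lamc1 was below them on every one, by 1.60-fold in the homologous array, 1.46-fold in the heterologous array and 1.28-fold in the co-injection mean. The chains of the main laminin of early embryos, alpha 1, beta 1 and gamma 1, thus had differences of −1.03, 1.24 and −0.54 in the heterologous array. Lama5, whose alpha 5 chain is part of the laminins on which ESCs are often grown, lay between 10.25 and 10.45 on all arrays. Lama2, of the alpha 2 chain of muscle basement membranes, and Lamb2, of the beta 2 chain, differed from parental ESCs by 0.55 and 0.78 in the heterologous array and by at most 0.27 elsewhere.

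Nidogens and perlecan link the laminin network to type IV collagen. Nid1 was at 11.69 in parental ESCs, 10.57 in the homologous array, 11.74 in the heterologous array, and 9.99 and 10.04 after co-injection. It was 2.17-fold lower than in parental ESCs in the homologous array and 3.18-fold lower in the co-injection mean (−1.67 ± 0.0337, SD, n = 2), while the heterologous array was level with them. Nid2 ran the other way in the heterologous array, at 10.59 against 11.16 in parental ESCs, 11.35 in the homologous array and 11.12 in each co-injection array, all within 2-fold. Hspg2, the gene of perlecan with its heparan sulfate chains, lay between 10.90 and 11.39, highest in parental ESCs.

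**Figure D3:**
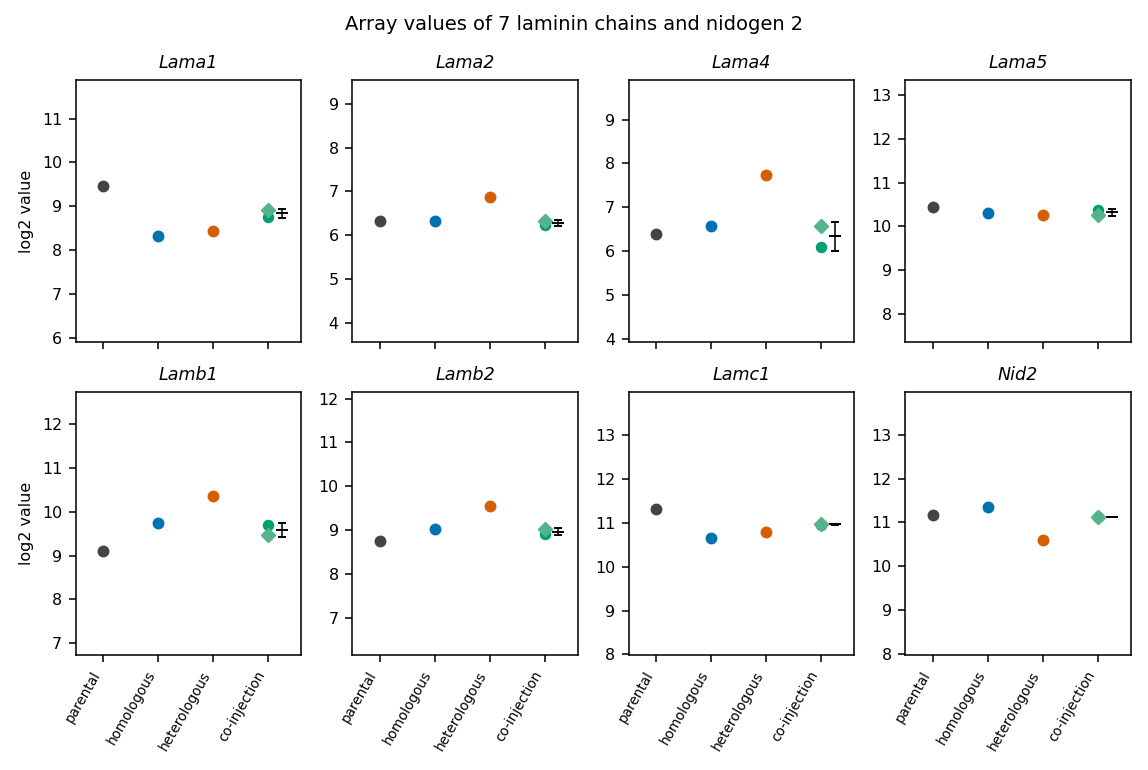
Log2 values (vertical axis) of the 7 laminin chain genes among the 45 and of nidogen 2 in parental ESCs and in ESC-like cells by condition (horizontal axis); co-injection batch 1 is the circle, batch 2 the diamond, and the bar their mean ± SD (n = 2). Every panel spans the same number of log2 units. Lama1 and Lamc1 are highest in parental ESCs, Lama4 and Lamb1 in the heterologous array, and Lama5 is nearly level across arrays.

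Of the comparisons above, heterologous against homologous and co-injection against parental share no array, and their values for the same genes can be set side by side. Tnc was 2.12 higher in the first and −2.80 in the second, Fbln2 1.65 and −1.13, and Nid1 1.17 and −1.67. Bgn had the second lowest value of the matrix genes in the co-injection comparison (−2.68) but a heterologous value only 0.67 above the homologous one. Has2 was over 2-fold higher in both, by 1.48 and 1.46. Edil3 and Dcn, with the largest excess of the heterologous over the homologous array (2.81 and 2.75), were within 2-fold of parental ESCs in the co-injection mean (−0.01 and −0.82).

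**Figure D4:**
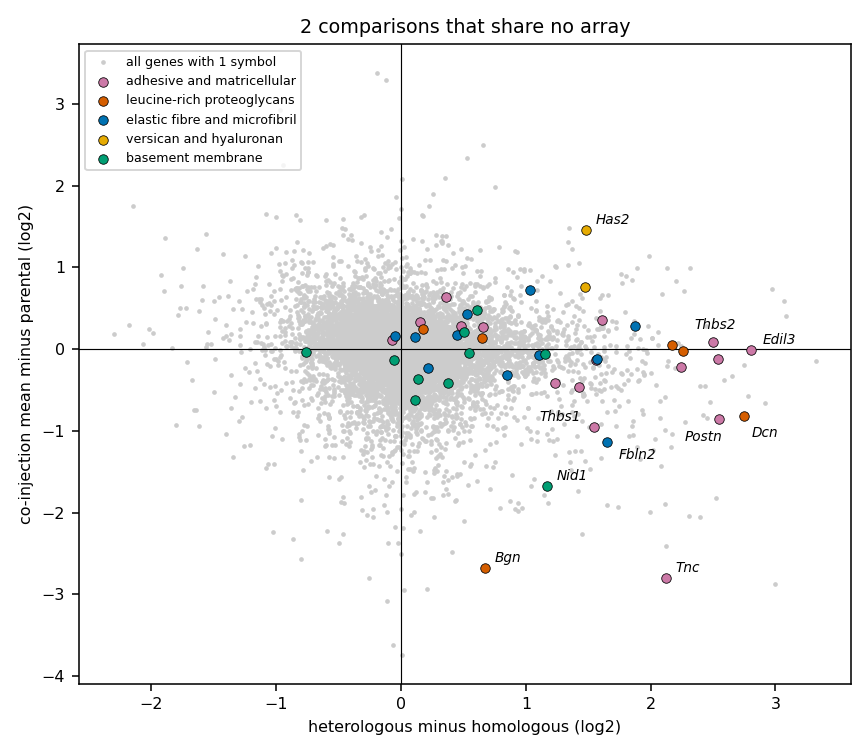
Differences of the heterologous from the homologous array (horizontal axis, log2) and of the co-injection mean from parental ESCs (vertical axis, log2); grey points are all 19938 genes and coloured points the 45 matrix genes by role group. Most matrix genes lie right of 0, 41 of 45 in all and 8 of the 10 of basement membranes, whose median is 0.44. On the vertical axis most lie near 0, with Tnc and Bgn below −2 and Has2 above 1.

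Relative to the homologous array, 9 matrix genes were over 2-fold lower in the co-injection mean, and 8 of them in both batches. They were Bgn (−3.64), Tnc (−3.10), Fbln2 (−2.16), Postn (−1.60), Ecm1 (−1.58), Thbs1 (−1.48), Efemp1 (−1.38) and Aspn (−1.25), whereas Ccdc80 (−1.05) passed 2-fold in batch 1 only. All are from the adhesive (5 genes), leucine-rich (2 genes) and elastic fibre (2 genes) groups, and no basement membrane gene was among them. Beside these genes, 3 of the 16 fibroblast markers were over 2-fold lower in the same comparison, Prrx1 (−2.03), Pdgfrb (−1.74) and Thy1 (−1.55). The median over the list was −0.38, and 0.351% of all genes were lower.

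In the comparison of the heterologous with the homologous array, the 23 higher matrix genes were 11 of 16 adhesive genes (median 1.55), 3 of 6 leucine-rich genes (1.42), 5 of 11 elastic fibre genes (0.85), both versican and hyaluronan genes (1.48) and 2 of 10 basement membrane genes (0.44). Of the fibroblast markers 9 of 16 were higher (1.08). Of 7 smooth muscle markers 5 were higher (1.36), led by Tagln (1.86), Myl9 (1.55) and Actg2 (1.37). Of all genes 2.41% were higher in this comparison. The co-injection mean was over 2-fold below the heterologous array for 11 adhesive genes (median −2.26), 4 leucine-rich genes (−3.01), 5 elastic fibre genes (−0.89), both versican and hyaluronan genes (−1.80) and 2 basement membrane genes (−0.44), and for 12 of 16 fibroblast markers (−1.53). Of the 45 matrix genes 4, namely Nid2 (−0.76), Vtn, Lama5 and Eln, lay lower in the heterologous than in the homologous array, and 6 lay higher in the co-injection mean than in the heterologous array, Nid2 (0.53) and Lama1 (0.40) foremost. Of the smooth muscle markers 5 of 7 were over 2-fold lower in the co-injection mean than in the heterologous array (median −1.93), against 2.99% of all genes. They were led by Acta2 (−3.40), which was also lower than in parental ESCs (−1.48). The part of mesenchymal cells in these matrix gene differences was not tested.

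Of 68 other measured matrix genes (of 70 listed, without collagens), 13 (19.1%) were over 2-fold higher in the heterologous array than in parental ESCs, against 3.98% of all genes. None was lower, against 1.95% of all genes, and the median was 0.03. The largest differences were those of Ccn4 (2.54), a further CCN protein gene, Igfbp7 (2.46), for a secreted binding protein of insulin-like growth factors, and Ltbp1 (2.17), for a carrier of latent TGF-beta. Igfbp7 had the pattern of Bgn and Tnc, at 10.16 in parental ESCs, 10.98 in the homologous array, 12.63 in the heterologous array, and 8.25 and 8.27 in the co-injection arrays. In the homologous array 2 of the 68 were higher and 1 lower (2.94% and 1.47%, median 0.02), against 1.45% and 1.60% of all genes. In the co-injection mean 2 were higher and 2 lower (2.94% each, median 0.09), against 0.647% and 1.44% of all genes. Counts this small are not read further. The 68 include 3 further laminin chain genes within 2-fold in all comparisons, Lama3 (−0.54, −0.58 and −0.54 relative to parental ESCs in the order homologous array, heterologous array, co-injection mean), Lamb3 and Lamc3.

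Among 7 receptors of laminin and nidogen, Itgb1, the common beta 1 integrin, had a difference of 1.33 in the heterologous array, and none of the 7 was over 2-fold lower there or differed by 2-fold in the homologous array or the co-injection mean. Of 20 measured enzymes that build glycosaminoglycan chains, 3 (15%) were over 2-fold higher in the heterologous array, against 3.98% of all genes. These were Csgalnact1 (1.56), Chst14 (1.47) and Chst11 (1.35), which act on chondroitin or dermatan sulfate, the chains that versican, biglycan and decorin carry. None of the 20 passed 2-fold in the homologous array or the co-injection mean. Of all genes 1.45% were higher and 1.60% lower in the homologous array, and 0.647% and 1.44% in the co-injection mean. Lists of 7 and 20 genes are too short for a count of none to set them apart from these shares. The co-injection mean was over 2-fold below the heterologous array for the same 3 enzymes (−1.57, −1.34 and −1.06), against 2.99% of all genes. Each list was drawn up with results of these arrays known, and its counts describe these arrays only.

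Markers of other cell types were read beside these values. The 12 endoderm markers had medians of 0.00, 0.32 and 0.12 in the homologous array, the heterologous array and the co-injection mean relative to parental ESCs. Sox7, a factor of parietal endoderm, was over 2-fold lower in all of them (−2.23, −1.85 and −1.77), and Dab2 was over 2-fold higher in all of them. Plat (1.93) and Thbd (1.86) were over 2-fold higher in the heterologous array, and Gata4 had differences of 0.41, 0.52 and 0.53. Col4a1 (−0.22, 0.18 and 0.06) and Col4a2 (−0.04, 0.51 and 0.17) stayed within 2-fold. Of the laminin chains that parietal endoderm makes, Lama1 and Lamc1 lay below parental ESCs in each condition and Lamb1 above them. The endoderm markers had differences in both directions. The part of such cells in the laminin differences was not tested.

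Of 7 epithelial markers 4 were over 2-fold higher in the co-injection mean than in parental ESCs (median 1.23), against 0.647% of all genes. They were led by Krt18 (2.09), Krt8 (1.90) and Krt19 (1.48). In the co-injection mean 6 of the 7 were over 2-fold higher than in the heterologous array (median 1.29), against 0.361% of all genes, the reverse of the matrix genes. In the heterologous array Cldn6 (−1.63) and Cldn7 (−1.37) were over 2-fold lower than in the homologous array, against 0.647% of all genes. The 7 macrophage markers had a median of −0.11 in the heterologous array relative to parental ESCs, with Lyz2 at 1.16 and Cd68 at −0.76, and Cd68 was over 2-fold lower in the homologous array (−1.31). The 7 endothelial markers had a median of −0.17 in the heterologous array, where Pecam1, which ESCs also express, was over 2-fold lower (−1.44). None of 6 measured chondrocyte and bone markers passed 2-fold in any comparison. Of all genes 8.00% did so in at least 1, so 6 genes are too few to read anything from this.

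Some chromosomes differed as a group from parental ESCs. X-linked genes had medians of −0.15, −0.16 and −0.13 over 739 genes in the homologous array, the heterologous array and the co-injection mean. In the same order, chromosome 8 had 0.12, −0.01 and 0.17 over 955 genes, and chromosome 12 had 0.00, 0.10 and 0.05 over 652. Chromosome Y had 0.58, 0.12 and 0.54, over only 9 genes. Each matrix gene was therefore set beside the 20 nearest measured genes (10 on each side in the GRCm38.p6 gene order). No neighbour median passed 2-fold in any comparison. All 24 genes counted in the heterologous array relative to parental ESCs, and all 5 in the co-injection mean, differed from the median of their neighbours by more than 2-fold in the same direction. Bgn had the lowest neighbour medians, −0.57 for the homologous array, −0.51 for the heterologous array and −0.53 for the co-injection mean relative to parental ESCs, all on the X chromosome. Its own value minus that of its neighbours was 1.53, 2.15 and −2.15. Fbln5 had the highest neighbour median in the heterologous array, 0.30. In the homologous array Fbln2 and Vcan fell under 2-fold beside their neighbours (0.76 and 0.89).

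**Figure D5:**
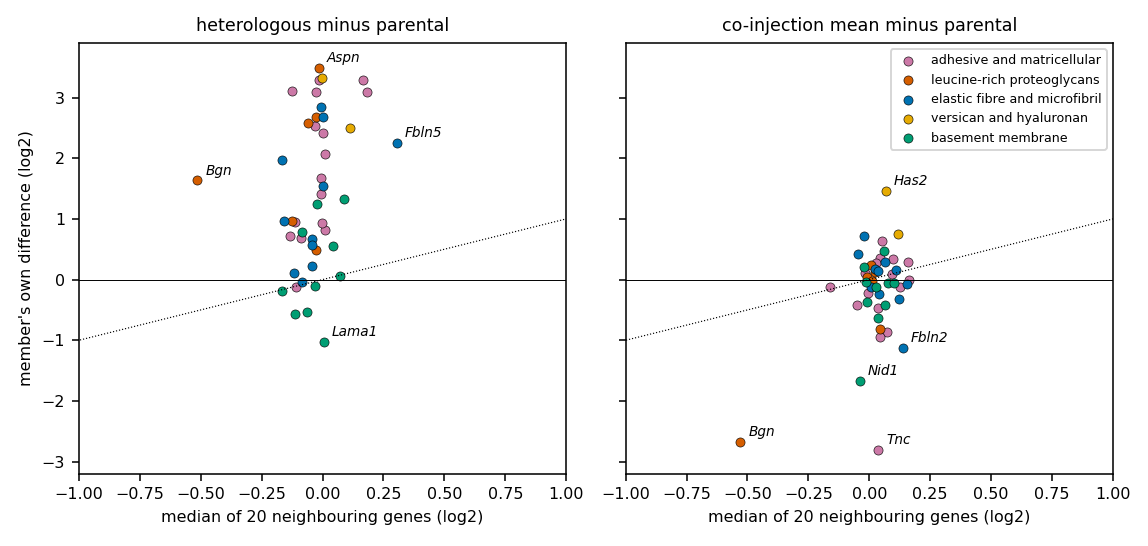
Each matrix gene's own difference (vertical axis, log2) and the median difference of its 20 neighbouring genes (horizontal axis, log2), for the heterologous array and the co-injection mean relative to parental ESCs; colours are role groups, and the dotted line marks equality. The neighbours of most genes lie near 0, Bgn stands apart at −0.51 and −0.53, and the genes that passed 2-fold lie far from the dotted line.

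Promoter sequence was available for 27 of the 45 genes. To show the letters in front of the genes with the largest differences, the 250 bases before the annotated start are given for Aspn and Postn, which had differences of 3.48 and 3.30 in the heterologous array, and for Tnc and Bgn, which were lowest in the co-injection mean. Has2 was not among the 27. Postn and Tnc had 2 promoter windows each. For every gene the window of the start farthest upstream was used, also in the counts below. Sequences are from RefSeq on GRCm38.p6, 5′ to 3′ on the strand of the gene, in lower case with TATAAA on either strand (TTTATA on the other) in capitals.
Aspn, chr13:49544193-49544442, plus strand: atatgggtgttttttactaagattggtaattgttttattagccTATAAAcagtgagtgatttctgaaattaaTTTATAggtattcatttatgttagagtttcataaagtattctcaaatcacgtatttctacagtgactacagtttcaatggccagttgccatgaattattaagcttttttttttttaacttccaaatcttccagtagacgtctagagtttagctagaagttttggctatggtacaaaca
Postn, chr3:54359017-54359266, plus strand: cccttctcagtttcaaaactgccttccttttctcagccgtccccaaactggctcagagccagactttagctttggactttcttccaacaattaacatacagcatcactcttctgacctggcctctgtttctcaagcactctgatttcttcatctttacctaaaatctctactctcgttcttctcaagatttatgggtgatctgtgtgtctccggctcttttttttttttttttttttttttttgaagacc
Tnc, chr4:64047016-64047265, minus strand: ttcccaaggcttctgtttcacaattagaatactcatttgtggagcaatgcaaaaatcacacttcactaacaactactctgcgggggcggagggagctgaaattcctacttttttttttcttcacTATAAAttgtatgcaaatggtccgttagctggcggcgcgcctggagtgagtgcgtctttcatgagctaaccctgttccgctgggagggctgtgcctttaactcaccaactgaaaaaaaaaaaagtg
Bgn, chrX:73483351-73483600, plus strand: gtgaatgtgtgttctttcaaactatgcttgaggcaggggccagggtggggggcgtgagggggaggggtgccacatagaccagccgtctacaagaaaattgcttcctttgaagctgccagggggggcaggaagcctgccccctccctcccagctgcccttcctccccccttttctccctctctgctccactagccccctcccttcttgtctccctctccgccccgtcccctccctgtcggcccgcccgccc

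The Aspn window held 2 such matches, the Tnc window 1, and the Postn and Bgn windows none. Over the 27 genes, 7 windows held TATAAA (25.9%), against 13% of 27025 promoters in the same table, and 3 held the AP-1 motif TGANTCA (11.1% against 6.85%). The TEAD motif GGAATG was in 6 windows (22.2% against 12.6%), those of Ccn1, Mfap2, Nid1, Ogn, Thbs4 and Vtn. Of these genes Thbs4 and Vtn stayed within 2-fold in all comparisons. The CArG box of serum response factor was in 1 window (3.7% against 1.41%). Both strands were searched, and sites of different motifs can overlap, as TATAAA can inside a CArG box. A match describes letters in a window and not a site in use, and a window without a match says nothing of the factor.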

How the data were processed

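RNA from 5 cell populations was hybridized to Affymetrix mouse gene arrays. Per the labels and the study's methods, probe intensities were read out in GCOS, RMA and quantile normalization followed, and the authors deposited the resulting log2 expression values. For neither tool is a version given, nor a genome build for the table. Groups were taken from the sample labels. The members and gene lists were chosen with earlier results of these data known. Of 35556 probe sets, 21789 had exactly 1 symbol in the platform annotation, 1621 had several and 12146 none. A gene was given by the brightest of its probe sets. Differences of log2 values were counted over 1 (2-fold), without a test. Genes over 2-fold in at least 1 of 6 comparisons are given with every array value, the others by ranges and up to 3 examples per role group, and other lists by counts and their 3 largest differences. Members printed outside this rule, such as laminin chains within 2-fold, were picked once their values were known. Other settings tried were thresholds of 1.5-fold and 3-fold, dim genes left out, the mean of a gene's probe sets, cyclic loess, array medians subtracted, each co-injection array left out, limma 3.58.1 on all 5 arrays (eBayes, p-values adjusted by Benjamini-Hochberg) and, chosen after seeing the data, subtraction of neighbouring genes. The fold rule and limma were also run on simulated data, where a pass mark was set for the fold rule alone. Promoter windows were read in the orientation of the gene, checked at 874 of 874 overlapping windows on the minus strand. Python 3.11.15, pandas 2.3.3, matplotlib 3.10.9 and R 4.3.3 were used.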

Additional observations from a re-analysis of the deposited data

Results flagged for a closer look

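Tnc, Bgn and Fbln2 had differences from parental ESCs over 2-fold in opposite directions in different conditions. Tnc was at 2.42 in the heterologous array and at −2.80 in the co-injection mean. Bgn was at 1.63 and −2.68 in the same comparisons. Fbln2 was at 1.03 in the homologous and 2.68 in the heterologous array and at −1.13 in the co-injection mean. Both co-injection arrays lay below parental ESCs for each of these genes. The fold rule tests no difference. limma with all 5 arrays, on 1 residual degree of freedom, gave an adjusted p of 0.146 for each of the 3 genes in co-injection minus heterologous and of 0.327 for Fbln2 in co-injection minus homologous. All differences from parental ESCs share the same parental array.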

How the results depend on the processing

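The counts rest on the fold threshold. At 1.5-fold, 16 matrix genes passed in the homologous array (13 higher, 3 lower; 9.51% of all genes) and 12 in the co-injection mean (4 higher, 8 lower; 6.91% of all genes) relative to parental ESCs, in place of 8 and 5. At 3-fold these counts were 1 and 3 (0.792% and 0.542% of all genes), and 12 genes passed between the heterologous and homologous arrays and 4 between co-injection and homologous (0.908% and 0.115% of all genes), in place of 23 and 9. With dim genes left out, the median difference was 1.11 for heterologous minus parental and 0.94 for heterologous minus homologous. limma with all 5 arrays, which has 1 residual and 0.818 prior degrees of freedom, called 0 matrix genes and 0 of all genes in each of the 6 comparisons, and the smallest adjusted p of a matrix gene was 0.109. At an unadjusted p under 0.05 it had 23, 36, 16, 32, 38 and 18 of the 45 genes, in the order homologous, heterologous and co-injection minus parental, heterologous minus homologous, co-injection minus heterologous and co-injection minus homologous. Over all 19938 genes it had 5341, 6246, 5177, 4880, 5930 and 2905. Of 93 differences of single matrix genes over 2-fold, none changed sign under any alternative. Under the fold rule 1 was lost with cyclic loess (Lama1, heterologous minus parental, −0.98), 1 without co-injection batch 1 (Ccdc80, co-injection minus homologous, −0.92) and 2 beside their neighbours (Fbln2 at 0.76 and Vcan at 0.89, homologous minus parental), and none with array medians subtracted. Leaving out each co-injection array gave 5 to 6 genes for co-injection minus parental, 24 for co-injection minus heterologous and 8 to 9 for co-injection minus homologous, with medians of −0.08 to 0.05, −1.23 to −1.17 and −0.22 to −0.11. The mean of a gene's probe sets gave the same values for the matrix genes, since each has 1. No other background correction or slide block was run, since these need the scanner files. No paired analysis was possible because only the co-injection condition has more than 1 array. Signal over background is not in the deposited table, so how far low values, such as those of Aspn, Ogn and Edil3 outside the heterologous array, lie above background is unknown, which limits how well differences from them are measured.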
